A study of Mus musculus with 19 samples.

Results

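The 35 genes described here encode the machinery of cell division. They comprise cyclins and kinases of mitotic entry, the chromosomal passenger complex, kinetochore and spindle checkpoint proteins, spindle and cytokinesis proteins, factors of protein destruction, chromosome structure proteins and the transcription factor Foxm1. They were taken by name from the 38424 entries of the deposited expression table, and every one had exactly 1 entry. The table covers 19 poly(A) RNA-seq libraries of mouse embryonic stem cell lines with a hairpin directed at a divergent long non-coding RNA, at the coding gene EVX1, or at no target (shCtrl). The study asked which genes change when such an RNA is depleted during differentiation.

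Of these libraries, 7 came from 46c cells, a mouse embryonic stem cell line, treated for 4 days with 5 nM retinoic acid (RA) in N2B27, a medium without serum that favours neural fate. They were 2 shNr2f1as, 1 shSox21os and 2 shPou3f3os libraries and 2 controls that all 3 knockdowns share. The other 12 came from cells left to differentiate in a serum medium without LIF, a cytokine that holds stem cells undifferentiated. They were 2 shEvx1as libraries and 1 control at day 4 in the line CJ7, and, in the line CJ9, 2 shEVX1 libraries and 1 control at day 4, 2 shFendrr libraries and 2 controls at day 5, and 1 shLhx1os library and 1 control at day 6. The labels give the strain 129S4/SvJae for CJ7 and CJ9. Culture, medium and line changed together, and each CJ9 day comes from another knockdown experiment. Nothing in the labels tells whether libraries numbered 1 and 2 are separate cultures or hairpins, and the p-values therefore cover the spread among these libraries alone, which may be technical.

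A cell enters mitosis when cyclin B bound to Cdk1 becomes active, aligns its chromosomes under the watch of the spindle checkpoint, and leaves mitosis when the anaphase-promoting complex with Cdc20 marks cyclin B and securin for destruction. Most of these genes are transcribed in a burst in G2 and M phase and are switched off in resting and differentiated cells, so their RNA is widely read as a sign of dividing cells. Embryonic stem cells divide fast with a short G1 phase. In bulk RNA, fewer cells in mitosis and less of each RNA per cell cannot be told apart.

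The promoters of such genes are known for a short element near the start site, the cell cycle genes homology region (CHR), bound by the DREAM and MuvB complexes, and for CCAAT boxes bound by NF-Y. RefSeq promoters (build GRCm38.p6, from 250 bases before the start to 50 after it) were matched by symbol for 29 of the 35 genes. CHR letters, TTTGAA or TTCGAA on either strand, stood in 23 of the 29 (79.3%), against 21.7% of all 27025 genes. A gene was counted when any of its promoters of that length held the letters. CCAAT on either strand stood in 24 of the 29 (82.8%), against 41.1% of all. Both stood in 21 members (72.4%), against 9.65% of all. A match is a description of letters and not a bound site, and a CHR and a CCAAT match can share at most 1 end base. The 5 stretches below, each from 100 bases before the start to 10 after it, read 5′ to 3′ on the gene's strand, are shown because these genes carry the results that follow. CHR letters are in capitals.
Ccnb2, chr9:70421545-70421654, minus strand: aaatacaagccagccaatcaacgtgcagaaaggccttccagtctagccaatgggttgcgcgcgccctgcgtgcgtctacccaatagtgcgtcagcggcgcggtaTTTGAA
Ccnb1, chr13:100786477-100786586, minus strand: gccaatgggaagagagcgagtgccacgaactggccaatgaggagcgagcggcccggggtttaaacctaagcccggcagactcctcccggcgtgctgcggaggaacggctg
Cdk1, chr10:69352903-69353012, minus strand: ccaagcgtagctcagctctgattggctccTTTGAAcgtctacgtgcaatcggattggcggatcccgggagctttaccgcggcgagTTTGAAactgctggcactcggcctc
Kif11, chr19:37376282-37376391, plus strand: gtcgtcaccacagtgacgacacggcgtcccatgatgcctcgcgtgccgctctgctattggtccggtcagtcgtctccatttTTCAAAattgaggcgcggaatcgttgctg
Ube2c, chr2:164769829-164769938, plus strand: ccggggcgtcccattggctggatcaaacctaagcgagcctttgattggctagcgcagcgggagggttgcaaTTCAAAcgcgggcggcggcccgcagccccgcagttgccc
In these stretches Ccnb2 holds 3 CCAAT boxes and CHR letters at the start site. Ccnb1 holds 2 CCAAT boxes and has no CHR letters in its whole window of 300 bases, which says only that these letters are not in that window.

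Values are FPKM, fragments per kilobase of transcript and per library size, as the authors deposited them. Library totals lay between 559050 FPKM (shLhx1os, the lowest) and 655315 FPKM, and 12255 to 12825 entries reached 1 FPKM. Absolute read depth is unknown, so no counting interval was computed. The relative depth of the libraries, read from the steps between low values, lay between 0.865 and 1.19. The entry of Evx1as (5730457N03Rik) was at 0.354 and 0.290 FPKM in shEvx1as and 1.66 FPKM in its control, Evx1 at 30.2 and 37.0 FPKM in shEVX1 and 53.9 FPKM in its control, and Fendrr at 0.358 and 0.0768 FPKM in shFendrr and 1.49 and 1.10 FPKM in its controls. That of Lhx1os (1500016L03Rik) was listed at 0 in shLhx1os and 0.0883 FPKM in its control. Both values are near the floor, so depletion of Lhx1os cannot be read from them. The entry of Pou3f3os (2610017I09Rik) did not separate the libraries labelled shPou3f3os (2.40 and 4.13 FPKM) from the controls (5.202 and 1.98 FPKM). No entry carries the name Nr2f1as or Sox21os, so depletion was not checked for these knockdowns. The cells were labelled embryonic stem cells, but a marker of differentiation was high in RA. Sox1, of neural progenitors, lay between 83.3 and 111 FPKM in RA, against values at or below 2.91 FPKM after LIF withdrawal, while the stem cell factor Pou5f1 was still at 43.5 to 282 FPKM in RA and 167 to 727 FPKM after LIF withdrawal, with the RA controls apart from each other at 43.5 and 282 FPKM.

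All 35 genes were expressed in every library. Their means over the 19 libraries ran from 5.31 FPKM for Bub1, a checkpoint kinase, to 223 FPKM for Ube2c, the ubiquitin-conjugating enzyme of the anaphase-promoting complex. The next most abundant were Cdc20, which activates that complex, at 152 FPKM and Plk1, a kinase of entry and exit, at 137 FPKM. The highest library stood over the lowest by 1.87 times for Kif20a to 5.26 times for Cenpe, with a median of 2.66 times. The lowest library was shLhx1os for 21 genes and RA control 2 for 10. The highest was shFendrr 1 for 16 genes and RA control 1 for 7. The summed level of the 35 genes was 1086 FPKM in shLhx1os and lay between 1681 and 2219 FPKM in the other 18 libraries.

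**Figure D1:**
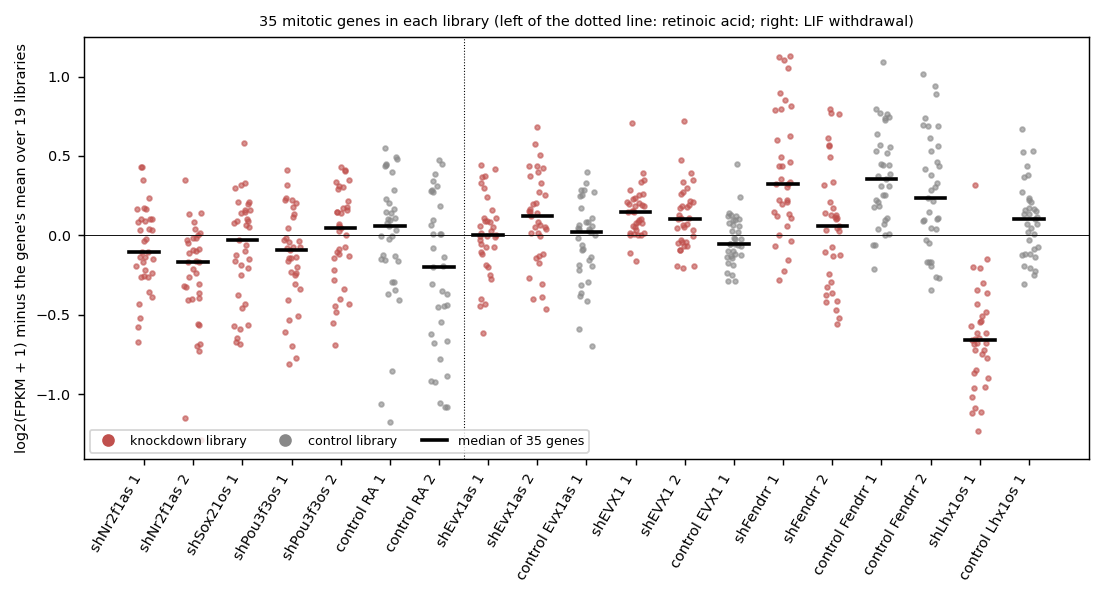
Each point is 1 of the 35 mitotic genes, as its log2(FPKM + 1) in a library minus its own mean over 19 libraries, with knockdown libraries in red, controls in grey and the median of the 35 genes as a black bar. The shLhx1os median lies at -0.66, below all other libraries, and the medians of both day-5 Fendrr controls lie at 0.35 and 0.23.

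The levels over all libraries are given as the lowest, the median and the highest value of each culture. Among the genes of entry, Cdk1 was at 26.8, 31.1 and 32.8 FPKM in the 7 retinoic acid libraries, against 27.0, 41.5 and 55.2 FPKM in the 12 LIF-withdrawal libraries. Plk1 was at 150.1, 177 and 198 FPKM in the 7 retinoic acid libraries, against 55.5, 119 and 144 FPKM in the 12 LIF-withdrawal libraries. All 7 RA libraries lay below 11 of the LIF-withdrawal libraries for Cdk1 and above all 12 for Plk1, with shLhx1os the exception for Cdk1. Birc5 was at 54.8, 79.7 and 85.4 FPKM in the 7 retinoic acid libraries, against 59.9, 113 and 127 FPKM in the 12 LIF-withdrawal libraries, and without shLhx1os the cultures did not overlap either. Aurkb was at 47.7, 57.9 and 63.0 FPKM in the 7 retinoic acid libraries, against 23.4, 43.0 and 55.5 FPKM in the 12 LIF-withdrawal libraries, with overlap.

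At the kinetochore, Bub1b was at 42.3, 48.6 and 54.7 FPKM in the 7 retinoic acid libraries, against 20.3, 44.8 and 59.3 FPKM in the 12 LIF-withdrawal libraries, and Cenpa at 54.8, 68.1 and 83.3 FPKM in the 7 retinoic acid libraries, against 28.5, 62.9 and 77.9 FPKM in the 12 LIF-withdrawal libraries. Both overlapped between cultures. Kif11 was at 4.74, 5.09 and 6.19 FPKM in the 7 retinoic acid libraries, against 5.85, 8.89 and 17.2 FPKM in the 12 LIF-withdrawal libraries, and Cdc20 at 130.2, 153 and 157 FPKM in the 7 retinoic acid libraries, against 90.2, 157 and 203 FPKM in the 12 LIF-withdrawal libraries. Kif11 was separated by culture when shLhx1os was set aside, and Cdc20 was not. Top2a was at 48.6, 59.6 and 68.1 FPKM in the 7 retinoic acid libraries, against 33.0, 62.5 and 91.9 FPKM in the 12 LIF-withdrawal libraries, and Mki67 at 7.71, 8.93 and 10.7 FPKM in the 7 retinoic acid libraries, against 7.96, 14.1 and 22.7 FPKM in the 12 LIF-withdrawal libraries, each with overlap. Foxm1 was at 50.7, 53.9 and 67.9 FPKM in the 7 retinoic acid libraries, against 32.6, 40.8 and 50.5 FPKM in the 12 LIF-withdrawal libraries, and all RA libraries were above all others. Over all 35 genes, the 7 RA libraries lay below the 11 LIF-withdrawal libraries other than shLhx1os in 8 genes (13% of all entries) and above them in 3 (16% of all entries).

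The control cultures were compared first, RA against LIF withdrawal. Cyclin A2 and cyclin B1, the anillin scaffold of the cleavage furrow (Anln) and the spindle protein Hmmr were lower in the RA controls, while the checkpoint protein Mad2l1, Foxm1 and the passenger complex subunits Incenp and Cdca8 were higher. Of 35 genes, 20 passed the test (57.1%), 6 higher and 14 lower, with limma's moderated test on log2(FPKM + 1) and Benjamini-Hochberg adjustment over 14942 entries at 0.05. Of all entries, 59.8% passed, 30.3% higher and 29.5% lower, so the share among these genes was close to that of the table. The counts by role that follow are to be read beside the same shares. The median log2 difference was -0.12 over the 35 genes and 0.00 over all entries. Both RA controls lay below all 5 LIF-withdrawal controls in 11 genes (25.6% of all entries) and above them in 6 (27.8% of all entries).

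**Figure D2:**
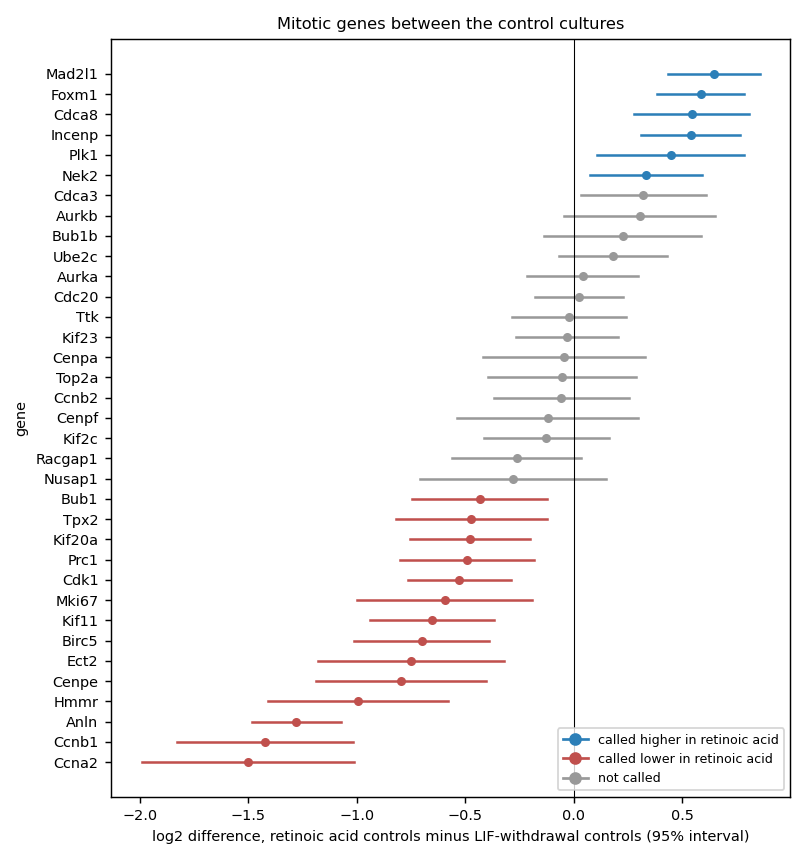
Each point is the log2 difference of 1 gene, RA controls (n = 2) minus the mean of 4 LIF-withdrawal control groups (5 libraries), with its 95% interval from the model. Blue genes passed as higher in RA, red genes as lower, and grey genes did not pass. Ccna2 lies lowest at -1.50 and Mad2l1 highest at 0.65.

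Among the cyclins and kinases of mitotic entry, 2 of 7 rose and 3 fell in RA. Ccna2 (chromosome 3, 36463787 to 36470918, in the table's coordinates, which fit the mm9 build), the cyclin of S and G2 phase, was at 17.0 and 20.6 FPKM in the retinoic acid controls, against 48.3, 54.6, 68.6, 65.0 and 51.6 FPKM in the LIF-withdrawal controls (log2 difference -1.50 ± 0.22 SE, adjusted p = 0.000178). Ccnb1 (chromosome 13, 101548694 to 101556441), the main partner of Cdk1, was at 23.9 and 23.6 FPKM in the retinoic acid controls, against 52.4, 54.6, 109.9, 104 and 59.3 FPKM in the LIF-withdrawal controls (log2 difference -1.42 ± 0.18 SE, adjusted p = 7.14e-05). The groups did not overlap for either cyclin, and over all 19 libraries Ccnb1 stayed apart. Its lowest, median and highest values were 22.4, 31.2 and 38.8 FPKM in the 7 retinoic acid libraries, against 41.3, 65.6 and 111 FPKM in the 12 LIF-withdrawal libraries. Ccnb2 (chromosome 9, 70255496 to 70269361), the second B-type cyclin, was at 115 and 108 FPKM in the retinoic acid controls, against 113, 97.0, 146, 114 and 126 FPKM in the LIF-withdrawal controls (log2 difference -0.06 ± 0.14 SE, adjusted p = 0.741), so its groups overlapped. Cdk1 itself was at 32.8 and 26.8 FPKM in the retinoic acid controls, against 37.9, 37.4, 55.2, 46.7 and 48.3 FPKM in the LIF-withdrawal controls, a smaller fall (log2 difference -0.53 ± 0.11 SE, adjusted p = 0.00159). Plk1, which activates cyclin B and Cdk1, went the other way, with 180.1 and 150.1 FPKM in the retinoic acid controls, against 115, 120.4, 132, 117 and 121 FPKM in the LIF-withdrawal controls (log2 difference 0.45 ± 0.15 SE, adjusted p = 0.0263), and did not pass without RA control 1 (log2 difference 0.32). Nek2, a centrosome kinase, also passed as higher (log2 difference 0.33 ± 0.12 SE, adjusted p = 0.0301), but not without RA control 1 (0.37) or RA control 2 (0.30). Aurka, the kinase of spindle poles, did not pass (log2 difference 0.04 ± 0.12 SE, adjusted p = 0.777). The names of the pseudogenes Ccnb1-ps and Ccnb2-ps have no entry of their own in the table, and reads shared with them would be uncertain.

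**Figure D3:**
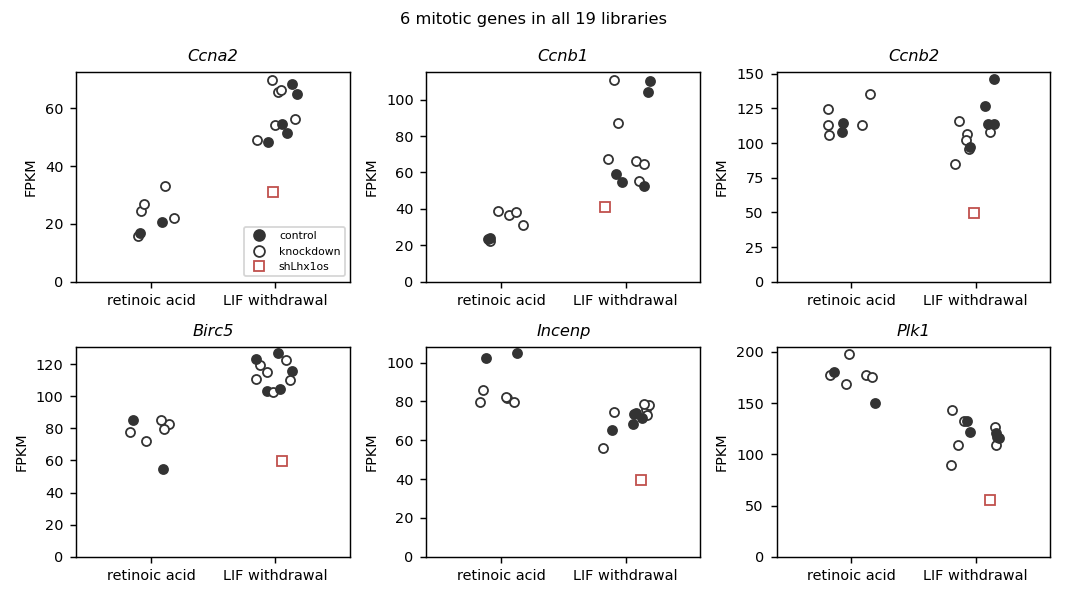
FPKM of 6 genes in all 19 libraries, RA at left and LIF withdrawal at right, with filled points for controls, open points for knockdowns and a red square for shLhx1os. Ccna2, Ccnb1 and Birc5 were lower in RA controls than in every LIF-withdrawal control, Incenp and Plk1 were higher, and Ccnb2 overlapped.

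The 4 subunits of the chromosomal passenger complex, which corrects wrong attachments and drives cytokinesis, did not move together. Birc5 (survivin) was at 85.4 and 54.8 FPKM in the retinoic acid controls, against 116, 103, 123, 127 and 104 FPKM in the LIF-withdrawal controls (log2 difference -0.70 ± 0.14 SE, adjusted p = 0.0014). Incenp, the scaffold of the complex, was at 105 and 103 FPKM in the retinoic acid controls, against 73.8, 73.5, 71.6, 65.2 and 68.6 FPKM in the LIF-withdrawal controls (log2 difference 0.54 ± 0.10 SE, adjusted p = 0.00101). Cdca8 (borealin) was at 156 and 146 FPKM in the retinoic acid controls, against 98.3, 110.4, 115, 102 and 96.4 FPKM in the LIF-withdrawal controls (log2 difference 0.54 ± 0.12 SE, adjusted p = 0.00243). For these 3 subunits no RA control overlapped the LIF-withdrawal controls, and the first lay below and the others above. Aurkb, the kinase subunit, was at 63.0 and 49.5 FPKM in the retinoic acid controls, against 46.3, 38.8, 49.4, 36.2 and 54.0 FPKM in the LIF-withdrawal controls and did not pass (log2 difference 0.30 ± 0.16 SE, adjusted p = 0.118).

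Of the 7 kinetochore and checkpoint genes, 1 rose and 2 fell. Mad2l1, which holds back Cdc20 until chromosomes are attached, was at 19.8 and 19.6 FPKM in the retinoic acid controls, against 8.85, 14.4, 13.2, 14.3 and 12.6 FPKM in the LIF-withdrawal controls (log2 difference 0.65 ± 0.10 SE, adjusted p = 0.000183), with all LIF-withdrawal values below the RA controls. Cenpe, the kinesin that moves chromosomes to the plate, was at 4.84 and 2.78 FPKM in the retinoic acid controls, against 4.86, 5.83, 11.03, 12.7 and 7.66 FPKM in the LIF-withdrawal controls (log2 difference -0.80 ± 0.18 SE, adjusted p = 0.00268). Bub1 also fell (log2 difference -0.43 ± 0.14 SE, adjusted p = 0.0209), while the related Bub1b did not pass (log2 difference 0.23), nor did the checkpoint kinase Ttk (-0.02), the centromere histone Cenpa (-0.04) or Cenpf (-0.12), which recruits motors to the kinetochore.

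All 5 spindle genes and all 6 genes of the midzone and cytokinesis had lower means in RA, and 3 and 4 of them passed. Hmmr was at 11.1 and 6.54 FPKM in the retinoic acid controls, against 14.9, 14.1, 25.6, 24.2 and 20.2 FPKM in the LIF-withdrawal controls (log2 difference -0.99 ± 0.19 SE, adjusted p = 0.000957). Kif11, the kinesin that pushes the spindle poles apart, was at 6.19 and 4.74 FPKM in the retinoic acid controls, against 7.46, 7.03, 13.6, 15.3 and 8.90 FPKM in the LIF-withdrawal controls (log2 difference -0.65 ± 0.13 SE, adjusted p = 0.00124). Tpx2, which activates Aurka on the spindle, fell by less (log2 difference -0.47 ± 0.16 SE, adjusted p = 0.0231). Anln (chromosome 9, 22135658 to 22193650) was at 11.7 and 11.4 FPKM in the retinoic acid controls, against 26.4, 26.3, 32.0, 36.1 and 32.3 FPKM in the LIF-withdrawal controls (log2 difference -1.28 ± 0.09 SE, adjusted p = 1.37e-06), and the 7 RA libraries stayed below all 12 others. The unnamed locus XLOC_023365, which overlaps Anln, averaged 1.18 FPKM in the RA controls and 17.1 FPKM in the 5 LIF-withdrawal controls, and it is unknown whether counting used strand, so reads of the pair cannot be told apart. Ect2, the exchange factor that starts the furrow (log2 difference -0.75 ± 0.19 SE, adjusted p = 0.00633), Kif20a, a midzone kinesin (log2 difference -0.48 ± 0.13 SE, adjusted p = 0.00688), and Prc1, which bundles midzone microtubules (log2 difference -0.49 ± 0.14 SE, adjusted p = 0.0109), also passed as lower. Racgap1 and Kif23, which form the centralspindlin complex, were at -0.26 and -0.03 on the log2 scale and did not pass, nor did the spindle genes Nusap1 (-0.28) and Kif2c (-0.13).

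Kif20a was at 58.0 and 40.5 FPKM in the RA controls, and at 69.7, 60.6, 75.0, 67.0 and 66.9 FPKM in the 5 RA knockdown libraries, which overlapped the LIF-withdrawal libraries. Its entry overlaps that of Cdc23, so the same limit on strand holds. Overlapping entries also exist for Ccna2 (Exosc9), Cdc20 (Elovl1), Nusap1 (Oip5), Nek2, Prc1 and Foxm1. With all groups of each culture in place of the controls its log2 difference was -0.04, that of Tpx2 was -0.20, and neither passed. In the same fit Ccnb2 (0.23, adjusted p = 0.0246) and Cenpa (0.30, adjusted p = 0.0184) passed as higher in RA by limma. That fit counts shLhx1os among the LIF-withdrawal groups. Both genes were lower there than in any other library, at 49.8 and 28.5 FPKM. The fit was not repeated without shLhx1os, so these calls cannot be read as a difference of culture alone.

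The 3 genes of protein destruction had higher means in RA but did not pass, Cdca3, a part of the ubiquitin ligase that removes Wee1, at a log2 difference of 0.32 (adjusted p = 0.0529 by limma), Ube2c at 0.18 and Cdc20 at 0.02. Cdc20 was at 153 and 157 FPKM in the retinoic acid controls, against 188, 165, 154, 133 and 121 FPKM in the LIF-withdrawal controls, and the groups overlapped. Mki67, the antigen Ki-67 that coats mitotic chromosomes, was at 10.6 and 7.71 FPKM in the retinoic acid controls, against 8.88, 12.6, 21.1, 20.2 and 17.3 FPKM in the LIF-withdrawal controls (log2 difference -0.59 ± 0.18 SE, adjusted p = 0.0156). Its overlapping unnamed locus XLOC_021096 averaged 16.8 FPKM in the RA controls and 54.4 FPKM in the LIF-withdrawal controls. Top2a, which untangles sister DNA, did not pass (log2 difference -0.06 ± 0.15 SE, adjusted p = 0.774). Foxm1, which drives many of the other genes, was at 67.9 and 60.5 FPKM in the retinoic acid controls, against 41.8, 50.5, 39.6, 38.3 and 39.3 FPKM in the LIF-withdrawal controls (log2 difference 0.58 ± 0.09 SE, adjusted p = 0.000245), above them without overlap. The regulator was thus higher in the same libraries in which Ccna2 and Ccnb1 were lower.

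The other genes of the division cycle were split as well. So were all entries, of which 30.3% passed as higher and 29.5% as lower, so a split is no trait of these lists. Of 33 further kinetochore and checkpoint genes, 8 rose and 10 fell, of 31 further spindle and cytokinesis genes 9 rose and 8 fell, and of 26 genes of condensin, separase and the anaphase-promoting complex 6 rose and 9 fell. By smallest adjusted p these were led by the centromere gene Cenpm (log2 difference 1.71 ± 0.12 SE, adjusted p = 8.74e-07), the augmin subunit Haus1 (log2 difference -1.96 ± 0.17 SE, adjusted p = 4.91e-06) and Anapc10, a subunit of the anaphase-promoting complex (log2 difference -1.81 ± 0.19 SE, adjusted p = 1.82e-05). Haus1 was low in the RA controls alone, and its values in the RA knockdown libraries, given under Other observations, overlapped those after LIF withdrawal. Of 30 genes of mitotic entry and its transcription, 14 rose and 7 fell, among them Bora, which helps Aurka activate Plk1 (log2 difference 0.92 ± 0.10 SE, adjusted p = 2.39e-05), and E2f1 (log2 difference 1.07 ± 0.15 SE, adjusted p = 0.000107). Of 38 genes of S phase and replication, 14 rose and 7 fell, with Uhrf1, which keeps DNA methylation at replication, higher (log2 difference 1.11 ± 0.10 SE, adjusted p = 5.93e-06) and Orc6, of the origin recognition complex, lower (log2 difference -1.70 ± 0.17 SE, adjusted p = 1.26e-05). Among 18 genes of G1, 7 rose and 3 fell, with the largest difference in cyclin D2. Ccnd2 was at 77.5 and 66.2 FPKM in the retinoic acid controls, against 5.87, 5.37, 5.97, 5.22 and 5.23 FPKM in the LIF-withdrawal controls (log2 difference 3.48 ± 0.24 SE, adjusted p = 8.77e-07). RA control 2 was lower than RA control 1 in 28 of the 35 mitotic genes, by a median log2 difference of -0.27. Without RA control 2, 12 genes passed, 7 of them lower, and Kif20a (log2 difference -0.22), Tpx2 (-0.14), Ect2 (-0.38), Cenpe (-0.48), Mki67 (-0.39), Prc1 (-0.33), Bub1 (-0.45) and Nek2 (0.30) no longer did. Without RA control 1, 18 genes passed, 14 of them lower. Racgap1 was added, and Plk1 (0.32), Nek2 (0.37) and Bub1 (-0.42) no longer passed. Against the day-4 LIF-withdrawal controls alone 14 passed, 8 of them lower. Kif11 (-0.36), Cenpe (-0.43), Mki67 (-0.21), Bub1 (-0.26), Tpx2 (-0.33) and Prc1 (-0.07) then no longer passed, so those calls depended on the day-5 and day-6 controls. RA was compared at day 4 with days 4 to 6, and culture and cell line cannot be told apart.

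Time was compared within CJ9, at day 5 against day 4 and at day 6 against day 5. The mean was higher at day 5 for most mitotic genes and lower at day 6 than at day 5, but few of these differences passed. At day 5, 29 of 35 had higher means, against 59.8% of all entries, with a median of 0.29 on the log2 scale (all entries 0.10), and 2 passed by limma with Benjamini-Hochberg adjustment (7.31% of all entries, 5.94% higher and 1.38% lower). Kif11 was at 7.03 FPKM at day 4, 13.6 and 15.3 FPKM at day 5 and 8.90 FPKM at day 6 (day 5 minus day 4: log2 difference 0.94 ± 0.19 SE, adjusted p = 0.0155). Prc1 was at 20.3 FPKM at day 4, 37.9 and 36.0 FPKM at day 5 and 38.8 FPKM at day 6 (day 5 minus day 4: log2 difference 0.84 ± 0.20 SE, adjusted p = 0.0341). For both, each day-5 library lay above the single day-4 library, and Prc1 did not return at day 6 (log2 difference 0.07).

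Ccnb1 was at 54.6 FPKM at day 4, 109.9 and 104 FPKM at day 5 and 59.3 FPKM at day 6, and its difference at day 5 did not pass (log2 difference 0.96 ± 0.27 SE, adjusted p = 0.0535). Cenpe was at 5.83 FPKM at day 4, 11.03 and 12.7 FPKM at day 5 and 7.66 FPKM at day 6 (log2 difference 0.91 ± 0.26 SE, adjusted p = 0.0566). Top2a was at 49.1 FPKM at day 4, 87.6 and 87.6 FPKM at day 5 and 63.5 FPKM at day 6 (log2 difference 0.82 ± 0.22 SE, adjusted p = 0.0505). These 3 genes were highest in both day-5 libraries, but missed the threshold. Foxm1 went against them, with 50.5 FPKM at day 4, 39.6 and 38.3 FPKM at day 5 and 39.3 FPKM at day 6 (log2 difference -0.37 ± 0.13 SE, adjusted p = 0.113). Plk1, at 120.4 FPKM at day 4, 132 and 117 FPKM at day 5 and 121 FPKM at day 6, and Cdc20, at 165 FPKM at day 4, 154 and 133 FPKM at day 5 and 121 FPKM at day 6, did not pass either.

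At day 6, 6 of 35 genes had higher means than at day 5 and 29 lower ones, against 45.7% of all entries higher, with a median of -0.19 (all entries -0.03). None passed by limma, against 3.61% of all entries (1.61% higher and 2.01% lower), and 6 of 35 had an unadjusted p under 0.05, against 19.9% of all entries. The smallest adjusted p was 0.0885 for Kif11. Aurkb was the largest higher value (log2 difference 0.35 ± 0.23 SE, adjusted p = 0.447).

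Other mitotic genes passed at day 5 and again, in the other direction, at day 6. Nuf2, of the outer kinetochore, was at 4.15 FPKM at day 4, 11.8 and 15.6 FPKM at day 5 and 4.79 FPKM at day 6 (adjusted p = 0.00221 at day 5 and 0.00571 at day 6 by limma). Smc2, the condensin ATPase, was at 4.28 FPKM at day 4, 10.7 and 15.6 FPKM at day 5 and 4.85 FPKM at day 6 (adjusted p = 0.0121 and 0.0303 by limma). These differences at day 6 share the day-5 libraries with those at day 5 and are no separate support for them. At day 5, 6 of the 31 further spindle and cytokinesis genes and 3 of the 26 condensin and anaphase-promoting complex genes passed as higher. Of the 33 kinetochore genes 2 did, and of the 38 S phase genes 1. Over all entries 5.94% did, so the kinetochore count was near that share and the S phase count below it. Hand1, of lateral mesoderm, was at 13.7 FPKM at day 4, 118 and 142 FPKM at day 5 and 204 FPKM at day 6. Day 4 and day 6 have 1 library each, which the model assumes to vary like the others. With the control libraries of both cultures modelled alone, the RA controls included, no gene passed in either comparison. Without Fendrr control 1 Kif11 passed and Prc1 did not, and without Fendrr control 2 neither passed. Day and experiment cannot be told apart.

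CJ7 and CJ9 could be set side by side at day 4, with 1 control library each and no test. No mitotic gene differed by 2-fold, against 4.07% (2.51% higher in CJ7 and 1.56% lower) of 8568 entries at 5 FPKM or more in either library. Of 35 genes, 19 were higher in CJ7 and 16 lower, with a median of 0.01 on the log2 scale. The largest differences were in Mad2l1, at 8.85 FPKM in CJ7 and 14.4 FPKM in CJ9, Cenpf, at 8.05 FPKM in CJ7 and 14.5 FPKM in CJ9, and Ube2c, at 289 FPKM in CJ7 and 194 FPKM in CJ9.

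Each knockdown was then compared with its own control. In the 6 knockdowns that could be tested, no mitotic gene passed by limma with Benjamini-Hochberg adjustment over 14942 entries. The calls over all entries were few too, at 0.00669% for shEvx1as and 0.00669% for shEVX1, all lower, and 0.147% for shFendrr (0.0535% higher and 0.0937% lower). In RA they came to 0.676% for shNr2f1as (0.422% higher and 0.254% lower), 0.0669% for shSox21os (0.0468% and 0.0201%) and 2.32% for shPou3f3os (1.6% and 0.716%). The numbers of mitotic genes with an unadjusted p under 0.05 were 0, 1, 3, 7, 4 and 6 of 35 for the 6 knockdowns in that order, against 4.38%, 3.32%, 7.03%, 18.1%, 11.4% and 20.8% of all entries, so the counts in RA were near those of the table. Medians of the 35 log2 changes were 0.09, 0.15, -0.09, -0.03, 0.01 and 0.06. The 95% interval of a gene's log2 change reached a median of 0.37 to either side with 2 libraries on both sides and 0.45 with a single library on 1 side.

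**Figure D4:**
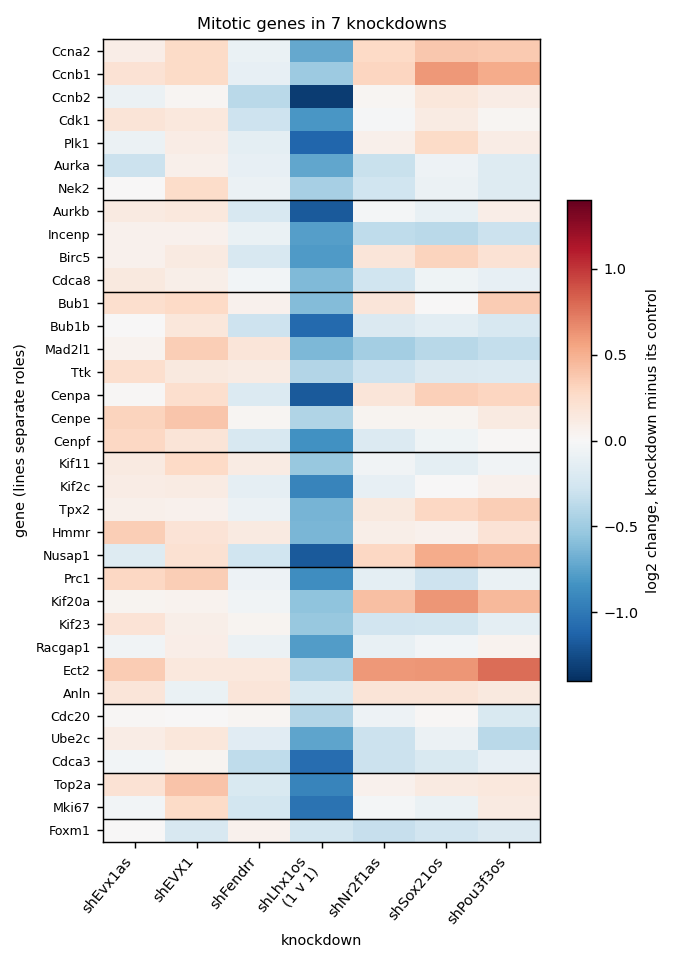
Colours give the log2 change of each of the 35 genes in each knockdown minus its control, red higher and blue lower, with lines between roles. The shLhx1os column is blue in all 35 genes, and in the other 6 columns the changes lie between -0.48 and 0.78.

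In shEvx1as, 28 of 35 genes had higher means than the control, and in shEVX1 33 did, but 59.6% and 60.9% of all entries did so as well. When libraries were rescaled by the median ratio, 19 and 26 of the 35 were higher. The median log2 change over all entries was then -1.57e-16 for shEvx1as and -0.00158 for shEVX1. The largest higher value in shEvx1as was that of Ect2, at 20.4 and 25.6 FPKM in shEvx1as and 17.7 FPKM in its control (log2 difference 0.35 ± 0.28 SE, adjusted p = 1), and the largest lower value that of Aurka, at 58.9 and 51.2 FPKM with the hairpin to Evx1as and 67.8 FPKM with the control hairpin (log2 difference -0.30 ± 0.17 SE, adjusted p = 1). In shEVX1, Top2a was highest against its control, at 64.8 and 65.1 FPKM in shEVX1 and 49.1 FPKM in its control (log2 difference 0.39 ± 0.22 SE, adjusted p = 1), and Mad2l1 was also among the 3 highest, at 17.7 and 19.6 FPKM in shEVX1, against 14.4 FPKM in its control (log2 difference 0.35 ± 0.14 SE, adjusted p = 1). Both knockdown libraries lay on 1 side of the single control for each of these genes. Foxm1 was the largest lower value in shEVX1, at 46.2 and 40.1 FPKM in shEVX1, against 50.5 FPKM in its control. The difference between the effects of shEVX1 and shEvx1as was tested directly and no mitotic gene passed, with none of 35 at an unadjusted p under 0.05 and none of all entries passing (428 of them at an unadjusted p under 0.05).

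In shFendrr, 11 of 35 genes had higher means than the controls and 24 lower ones, against 49.8% of all entries higher. The largest lower values were those of Ccnb2, at 116 and 85.2 FPKM in shFendrr and 146 and 114 FPKM in its controls (log2 difference -0.38 ± 0.17 SE, adjusted p = 0.696), Cdca3, at 80.6 and 58.8 FPKM in shFendrr, against 96.1 and 81.6 FPKM in its controls (log2 difference -0.36 ± 0.15 SE, adjusted p = 0.696), and Cdk1, at 40.9 and 41.7 FPKM in shFendrr, against 55.2 and 46.7 FPKM in its controls (log2 difference -0.29 ± 0.13 SE, adjusted p = 0.696). These groups overlapped for Ccnb2, and for Cdca3 and Cdk1 both knockdown libraries lay below both controls. The shFendrr libraries differed from each other, with replicate 2 lower than replicate 1 in 32 of 35 genes by a median of -0.34. Without replicate 1 the median change was -0.27, and without replicate 2 it was 0.08.

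The 3 RA knockdowns share their controls, so their values stand side by side here and are no independent repeats. Ect2 was at 15.9 and 13.0 FPKM in shNr2f1as, 14.5 FPKM in shSox21os and 14.7 and 18.2 FPKM in shPou3f3os, against 12.1 and 6.81 FPKM in the controls (log2 changes 0.61, 0.62 and 0.78, adjusted p = 0.195, 0.438 and 0.0884 by limma). Every knockdown library lay above both controls, which differed from each other. Kif20a was at 69.7 and 60.6 FPKM in shNr2f1as, 75.0 FPKM in shSox21os and 67.0 and 66.9 FPKM in shPou3f3os, against 58.0 and 40.5 FPKM in the controls (log2 changes 0.42, 0.62 and 0.46).

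Ccnb1, low in the RA controls, was at 38.8 and 22.4 FPKM in shNr2f1as, 36.8 FPKM in shSox21os and 31.2 and 38.4 FPKM in shPou3f3os, against 23.9 and 23.6 FPKM in the controls (log2 changes 0.30, 0.61 and 0.52). One shNr2f1as library lay below the controls and the other 4 knockdown libraries above them. Mad2l1 was lower, at 14.2 and 13.5 FPKM in shNr2f1as, 14.8 FPKM in shSox21os and 15.3 and 15.5 FPKM in shPou3f3os, against 19.8 and 19.6 FPKM in the controls (log2 changes -0.48, -0.39 and -0.34, the smallest adjusted p = 0.0683 in shNr2f1as by limma). Incenp was at 79.6 and 81.9 FPKM in shNr2f1as, 79.8 FPKM in shSox21os and 86.1 and 82.3 FPKM in shPou3f3os, against 105 and 103 FPKM in the controls, so that all 5 knockdown libraries lay below both controls for these genes. Foxm1, at 51.7 and 50.7 FPKM in shNr2f1as, 52.9 FPKM in shSox21os and 53.9 and 57.3 FPKM in shPou3f3os, against 67.9 and 60.5 FPKM in the controls, was lower in each as well, and did not pass.

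These values depended on the controls. Without RA control 1, 4 genes passed as higher in shPou3f3os (Birc5, Ect2, Kif20a and Tpx2), 2 in shNr2f1as (Ect2 and Kif20a) and 1 in shSox21os (Kif20a). Without RA control 2 none passed in any of the 3. The widest gap between replicates of 1 group was also here, in Ccna2, at 33.2 and 15.7 FPKM in the shNr2f1as libraries. It was the only 2-fold gap between replicates of a group among these genes. Of entries with at least 5 FPKM in either shNr2f1as library, 1.62% had such a gap.

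The mitotic genes were lower in the shLhx1os library than in its control, with the largest median change of the 7 knockdowns. All 35 were lower, against 55.4% of all entries, at 39.5% to 85.6% of the control level with a median of 59.5%. The median log2 change was -0.73, against -0.06 over all entries. With 1 library each there is no test, and a gene was counted when it changed by 2-fold or more on the log2(FPKM + 1) scale with at least 5 FPKM in either library. By this rule 8 of 35 genes (22.9%) were lower and none higher, against 6.19% of 9011 entries lower and 5.09% higher. Between replicates of the 7 groups of 2 libraries, 1 gene in 1 group and none in the other 6 reached 2-fold. Of all entries with at least 5 FPKM in either replicate, 0.377% (shEVX1) to 4.34% (shFendrr) did. Those replicates may be technical, so they do not give the spread between separate cultures.

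**Figure D5:**
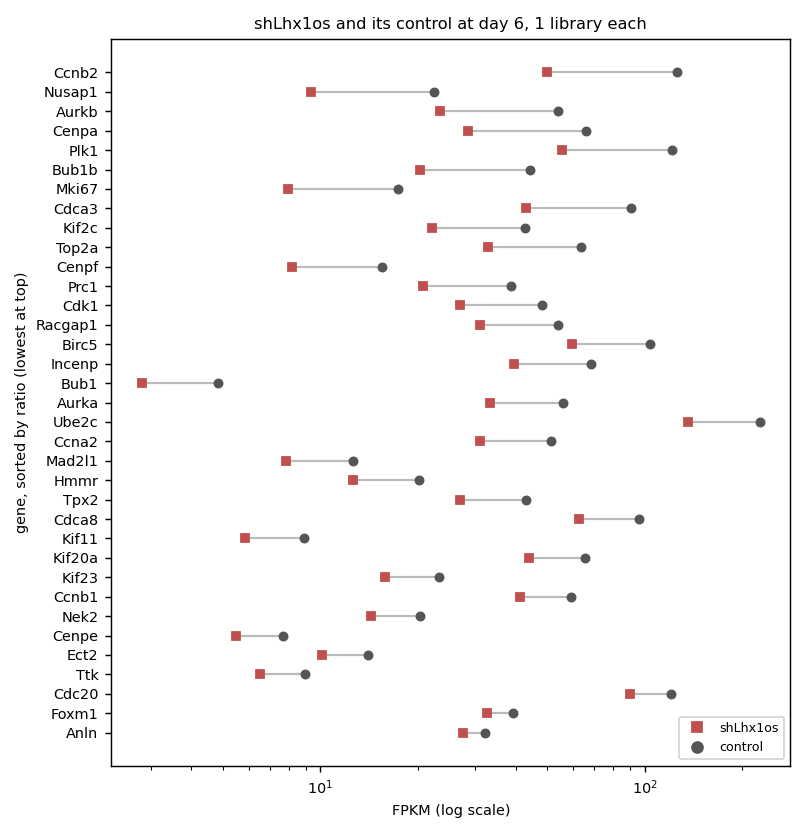
FPKM of the 35 genes on a log axis in shLhx1os (red squares) and its control (grey circles) at day 6, sorted by their ratio. Every square lies left of its circle, with the widest gap in Ccnb2 (49.8 against 126 FPKM) and the narrowest in Anln (27.6 against 32.3 FPKM).

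Ccnb2 was at 49.8 FPKM in shLhx1os, against 126 FPKM in its control (log2 change -1.32), and its lowest value in the other 11 LIF-withdrawal libraries was 85.2 FPKM, in shFendrr 2. Ccnb1 was at 41.3 FPKM in shLhx1os, against 59.3 FPKM in its control (69.6% of the control), a smaller change than that of Ccnb2. In the RA controls, by contrast, Ccnb1 passed as lower and Ccnb2 did not pass. Ccna2 was at 31.1 FPKM in shLhx1os, against 51.6 FPKM in its control, and Cdk1 at 27.0 FPKM in shLhx1os, against 48.3 FPKM in its control. Neither reached 2-fold. Plk1 was at 55.5 FPKM in shLhx1os, against 121 FPKM in its control (log2 change -1.11), and Aurka at 33.3 FPKM in shLhx1os, against 55.9 FPKM in its control.

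In the passenger complex, Aurkb was at 23.4 FPKM in shLhx1os, against 54.0 FPKM in its control (log2 change -1.17), and Incenp, Birc5 and Cdca8 were at 57.9%, 57.5% and 64.9% of the control. All 4 subunits were thus lower, whereas in the RA controls 2 passed as higher and 1 as lower. At the kinetochore, Cenpa was at 28.5 FPKM in shLhx1os, against 65.9 FPKM in its control (log2 change -1.18). Bub1b, the checkpoint kinase-like protein BubR1, was at 20.3 FPKM in shLhx1os, against 44.2 FPKM in its control (log2 change -1.09). Mad2l1 and Ttk, of the same checkpoint, were at 62.0% and 72.4% of the control and did not reach 2-fold.

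Nusap1, which stabilises spindle microtubules, was at 9.36 FPKM in shLhx1os, against 22.4 FPKM in its control (log2 change -1.17), and Kif11 at 5.85 FPKM in shLhx1os, against 8.90 FPKM in its control. Cdca3 was at 42.9 FPKM in shLhx1os, against 91.0 FPKM in its control, Ube2c at 136 FPKM in shLhx1os, against 226 FPKM in its control and Cdc20 at 90.2 FPKM in shLhx1os, against 121 FPKM in its control. Mki67 was at 7.96 FPKM in shLhx1os, against 17.3 FPKM in its control (log2 change -1.03, the member just inside the threshold), while Kif2c, which depolymerises microtubules, was just outside it (-0.93). Foxm1 was at 32.6 FPKM in shLhx1os, against 39.3 FPKM in its control (82.9% of the control), among the smallest changes beside Anln.

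In 31 of 35 genes shLhx1os lay below all 11 other LIF-withdrawal libraries, its own control among them (19.6% of all entries). In 21 genes it was the lowest of all 19 libraries (14.6% of all entries). The exceptions among LIF-withdrawal libraries were Cenpe, Cenpf, Prc1 and Anln.

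Other genes of the cycle were lower too. Of 38 S phase and replication genes, 37 were lower and 6 by 2-fold, among them Mcm6, of the replicative helicase, at 61.2 FPKM in shLhx1os, against 131 FPKM in its control, and Tk1, thymidine kinase, at 21.7 FPKM in shLhx1os, against 60.8 FPKM in its control. Of the further mitotic genes, 29 of 33 at the kinetochore and 26 of 31 at the spindle were lower. So were 25 of 26 of condensin and the anaphase-promoting complex and 24 of 30 of mitotic entry. Of all entries, 55.4% were lower in this pair. By 2-fold, 2, 1, 2 and 3 genes of these further mitotic lists were lower, in that order. These counts were near the table's share, 6.19% of the 9011 entries with at least 5 FPKM in either library. Inhibitors of the cycle were split. Cdkn1a, which encodes p21 and blocks Cdk2, was at 133 FPKM in shLhx1os, against 48.6 FPKM in its control. Cdkn2a was at 68.4 FPKM in shLhx1os, against 22.9 FPKM in its control, and Cdkn2b at 14.1 FPKM in shLhx1os, against 4.24 FPKM in its control. Gadd45g was at 100.2 FPKM in shLhx1os, against 44.0 FPKM in its control, and the antiproliferative Btg2 at 74.7 FPKM in shLhx1os, against 34.6 FPKM in its control. In the other direction, Cdkn1b, which encodes p27, was at 13.1 FPKM in shLhx1os, against 31.8 FPKM in its control, and Cdkn1c, which encodes p57, at 23.8 FPKM in shLhx1os, against 98.1 FPKM in its control.

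Markers of cell types moved in the same pair of libraries. All 10 markers of lateral and cardiac mesoderm were lower in shLhx1os, 6 of them by 2-fold, with Hand1 at 10.5 FPKM in shLhx1os, against 204 FPKM in its control. Of 13 primitive streak markers 12 were lower, 5 by 2-fold. Of 15 pluripotency markers 11 were lower, 1 by 2-fold, and Pou5f1 was at 176 FPKM in shLhx1os, against 167 FPKM in its control. Among 9 neuron markers 7 were higher, 3 by 2-fold, with Tubb3 at 18.3 FPKM in shLhx1os, against 4.02 FPKM in its control. Other lists went both ways. Of 10 neural progenitor markers 5 were higher and 4 lower, 1 and 2 of them by 2-fold. Of 7 fibroblast markers 4 were higher and 3 lower, 2 and 1 of them by 2-fold. Of 6 blood and endothelium markers 2 were higher and 4 lower, 1 of these by 2-fold. Over 9011 entries with at least 5 FPKM in either library, 6.19% were lower by 2-fold and 5.09% higher. The part of these cell types in the lower mitotic levels was not tested. The library total of shLhx1os was the lowest, and with libraries rescaled to the same total or by the median ratio all 35 genes were still lower, with 5 past 2-fold (Aurkb, Ccnb2, Cenpa, Nusap1 and Plk1) and medians of -0.64 and -0.62. A single library supports each arm, so the difference is between these libraries and has no replicate check.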

How the data were processed

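RNA was measured in 19 libraries of poly(A) RNA prepared with a stranded kit, per the labels' protocols. The tools TopHat2 2.0.11 and CASAVA and the builds mm9 and mm10 are named per the submitters' processing notes. The gene quantifier and its use of strand are not stated. The authors deposited FPKM values per gene in 1 table of 38424 entries, used as deposited. Values were taken as log2(FPKM + 1), and a floor of 1 FPKM reached by 2 or more libraries left 14942 entries, all 35 mitotic genes among them. A model with 1 mean for each of the 12 groups, 7 of 2 libraries and 5 of 1, was fitted with limma 3.58.1 in R 4.3.3 (7 residual degrees of freedom, trended empirical Bayes), with Benjamini-Hochberg adjustment over all 14942 entries at 0.05. Calls were tested on simulated data. FPKM is not a count, so no count model was used, and fold changes of low genes are understated by the pseudocount. FPKM carries no absolute depth, so counting error is unknown. Pairs of single libraries (shLhx1os, CJ7 and CJ9 at day 4) have no test and were read by a 2-fold difference with at least 5 FPKM in either library. Promoter letters came from RefSeq (GRCm38.p6), and the coordinates of the 2 builds were not mixed. Pseudocount, filter, scaling, replicate block, control set and leaving out each library were varied. The members, the gene lists and the tests were chosen with earlier results of these data known. The genes named were 12 fixed members, in each comparison up to 8 members passing by smallest adjusted p or, where none passed, the 3 largest higher and 3 largest lower values, and up to 3 genes of each other list. Others named here were chosen after their values were seen, among them the cyclin-dependent kinase inhibitors and Btg2.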

Additional observations from a re-analysis of the deposited data

How the results depend on the processing

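Of the 20 genes that passed in RA against LIF withdrawal, 1 changed direction under any alternative, and of those that did not pass 9 did, none with a log2 difference beyond 0.23 except Nusap1 (-0.28). Against day-4 controls alone Ccnb2 was at 0.083, Top2a at 0.27, Cenpf at 0.25 and Cdc20 at -0.19, and none passed. With all groups, shLhx1os among them, Ccnb2 (0.23) and Cenpa (0.30) passed as higher. Elsewhere no gene that passed changed direction, while 6 to 23 of those that did not pass did so in each tested comparison, 23 of them in shFendrr. Nek2 in RA was at -0.026 against day-5 controls alone, Ube2c at day 6 at -0.020 without Fendrr control 2, Nusap1 in shEvx1as at 0.085 against both day-4 controls, Anln in shEVX1 at 0.010 without shEVX1 2, and Ccnb1 in shNr2f1as at -0.081 without shNr2f1as 1 (0.69 without shNr2f1as 2). In RA against LIF withdrawal, 8 genes passed as lower against day-4 controls alone, and the median was -0.44 against day-5 controls alone. With all groups, shLhx1os among them, 11 passed as higher. With 1 library left out, 7 to 14 passed as lower and 4 to 7 as higher, and the median ran from -0.26 to -0.024. At day 5 against day 4, 5 genes passed as higher with a pseudocount of 5 and 1 with no filter. With a floor of 5 FPKM 4 did, and with equal totals 4. None passed at day 5 with the control libraries of both cultures modelled alone. With 1 library left out the median at day 5 ran from 0.28 to 0.32. In shLhx1os, 5 genes were lower by 2-fold with a pseudocount of 5, 5 with equal totals and 5 by the median ratio.

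With 1 library left out, medians ran from -0.24 to -0.17 at day 6, 0.03 to 0.16 in shEvx1as, 0.14 to 0.15 in shEVX1, -0.02 to 0.11 for shEVX1 minus shEvx1as, -0.27 to 0.083 in shFendrr, -0.20 to 0.12 in shNr2f1as, -0.09 to 0.08 in shSox21os and -0.12 to 0.16 in shPou3f3os. Genes passing as higher ran from 0 to 2 in shNr2f1as, 0 to 1 in shSox21os and 0 to 4 in shPou3f3os. The cause of these changes was not tested. The replicate numbers were not taken to pair the libraries. Deviations of same-numbered libraries correlated at 0.35 for shFendrr and its controls and 0.30 for shNr2f1as and the RA controls, but at -0.019 for shPou3f3os and the RA controls and -0.053 for shNr2f1as and shPou3f3os. With the numbers as a replicate block, 19 genes passed in RA against LIF withdrawal, 18 of them shared with the fit without it, and 8 at day 5, while no member passed in any knockdown. Over all entries the block moved calls to 331 against 101 in shNr2f1as and to 813 against 346 in shPou3f3os. Single-library groups limit the day comparisons and shLhx1os, and depth beyond relative steps is unknown.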

Other observations

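The shFendrr libraries differed from each other in some inhibitors of the cycle as well as in the mitotic genes. Cdkn2a was at 8.61 and 28.9 FPKM in shFendrr 1 and 2, against 14.8 and 17.9 FPKM in their controls. Gadd45g, a stress gene that slows the cycle, was at 12.9 and 56.1 FPKM in shFendrr and 13.5 and 23.3 FPKM in the controls, and Cdkn1a at 56.4 and 91.2 FPKM in shFendrr and 55.8 and 50.04 FPKM in the controls. In each of these the second knockdown library was the highest of the 4. It was also the one with lower mitotic genes, but a link between the 2 was not tested. The genes named here were chosen after their values were seen. Of the 18 genes of G1, 8 had higher means in shFendrr and 10 lower ones, and none passed.

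The RA controls stood apart from the RA knockdowns in another spindle gene. Haus1, a subunit of the augmin complex that nucleates spindle microtubules, was at 13.4 and 9.78 FPKM in shNr2f1as, 17.6 FPKM in shSox21os and 13.7 and 14.1 FPKM in shPou3f3os, against 3.61 and 4.76 FPKM in their shared controls. It passed as higher in each by limma (log2 changes 1.27, 1.85 and 1.53, adjusted p = 0.0352, 0.0359 and 0.0168), and no other gene of the further mitotic lists passed in any tested knockdown. The 12 LIF-withdrawal libraries held 9.75 to 27.8 FPKM, so Haus1 lay below all of them in the RA controls alone. The controls also differ from each other in the housekeeping gene Ppia, at 1468 and 735 FPKM. Hprt, the purine salvage gene, was at 0 to 0.426 FPKM in the 7 RA libraries, against 15.5 to 30.9 FPKM in the 12 others. It has no part in mitosis, and line and culture cannot be told apart in this difference.

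The promoter letters were also counted by the direction of the genes, and a relation between them was not tested. Among genes with a matched promoter, CHR letters stood in 8 of 11 lower in RA, 2 of 4 higher and 13 of 14 that did not pass. They stood in 6 of 7 of those lower by 2-fold in shLhx1os, where all 35 genes were lower, so that count says nothing about direction. CCAAT stood in 9 of 11, 3 of 4, 12 of 14 and 6 of 7 genes, in the same order. Only 4 genes higher in RA had a matched promoter, too few to compare directions.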
